A study of Mus musculus with 6 samples.

Results

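The 7 genes of the Myc-Max network described here were followed across sorted fractions of mouse embryonic stem cell (ESC) cultures: Myc, Mycn, Max, Mga, Mnt, Mxd1 and Mxi1. They were taken from the deposited count table by gene symbol, and every symbol matched a single gene among 38561. All 7 passed the filter on low counts, as did 13909 genes in the whole table. The proteins of this network are basic helix-loop-helix leucine zipper transcription factors that bind DNA as pairs with Max, mostly at the E-box. Myc and Mycn activate genes of growth, ribosome production and nucleotide synthesis, and in mouse ESCs Myc is a target of LIF and STAT3 signalling. Mnt, Mxd1 and Mxi1 compete for Max and E-boxes and bring in the Sin3 corepressor, which carries histone deacetylases. Mga pairs with Max too, carries an additional T-box DNA-binding domain, and belongs to the polycomb complex PRC1.6, which represses germline genes in mouse ESCs.

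All cells had the background 129X1/SvJ x 129S1/Sv and came from feeder-free ESC cultures on gelatin, labelled undifferentiated, at passages 13 to 17, in medium with 20% Knockout Serum Replacement and 1000 U/ml LIF, a cytokine that maintains ESCs. They were sorted on the adhesion molecule PECAM1, carried by undifferentiated ESCs, and on PDGFRa, a growth factor receptor of primitive endoderm, the extraembryonic lineage that forms beside the pluripotent epiblast. The 3 fractions are called PDGFRa-only (PECAM1minPDGFRaplus), double-positive (PECAM1plusPDGFRaplus) and PECAM1-only (PECAM1plusPDGFRamin), and share strain, culture and medium, with no genetic change in the labels. Each fraction had 2 libraries, labelled Exp1 and Exp2 and here numbered 1 and 2, from 100000 sorted events whose RNA was amplified before sequencing. The labels do not say whether the numbers mark separate cultures or a shared sort, so p-values measure only the spread between these libraries.

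Libraries held 4809661 to 7273669 counts, and edgeR's quasi-likelihood test with Benjamini-Hochberg adjustment over all tested genes, at a threshold of 0.05, gave every adjusted p below unless another tool is named. Levels are counts scaled to library size (CPM) after TMM normalization, and fold changes are on the log2 scale. The 10 primitive endoderm markers examined were all higher in the PDGFRa-only than in the PECAM1-only fraction (summed level 24439 and 25006 CPM against 75.3 and 95.5 CPM), with Foxa2 at 0 counts in the latter. The 10 pluripotency markers were all lower (156 and 111 CPM against 1686 and 1746 CPM). These lists include the sort markers themselves, Pdgfra in the first and Pecam1 in the second, whose direction the gates favoured in advance. The series title presents PDGFRa-positive cells as an in vitro counterpart of primitive endoderm precursors, and the comparisons ask how these fractions differ. In bulk samples, fewer cells that express a gene and less of its RNA per cell cannot be told apart.

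Mga was lowest in PDGFRa-only and highest in PECAM1-only cells and passed the test in all 3 comparisons. Mycn had lower values and Max and Mxi1 higher values in the PDGFRa-only than in the PECAM1-only fraction, by less than 1.5-fold each, and these 3 calls depended on single libraries or on the scaling. Myc, Mnt and Mxd1 did not pass in any comparison. Of the 7 genes, 2 were called higher and 2 lower between PDGFRa-only and PECAM1-only cells, where 59.0% of all tested genes were called (30.1% higher and 28.8% lower). Between double-positive and PECAM1-only cells 1 gene was called, Mga, which was lower, against 38.2% of all tested genes (21.8% higher and 16.4% lower). The libraries of the single-positive fractions did not overlap for Mycn, Max, Mga and Mxi1, which was so for 77.9% of tested genes. Between double-positive and PECAM1-only cells this held for Mga and Mxi1 (71.7%), and between PDGFRa-only and double-positive cells for Mycn, Max and Mga (57.5%). Between PDGFRa-only and double-positive cells 1 gene was called, again Mga and again lower, against 17.6% (5.94% higher and 11.7% lower). The calls over the 7 genes were thus no more frequent than over the table as a whole, and their median log2 fold change between the single-positive fractions was 0.19, against 0.0059 over all tested genes.

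**Figure D1:**
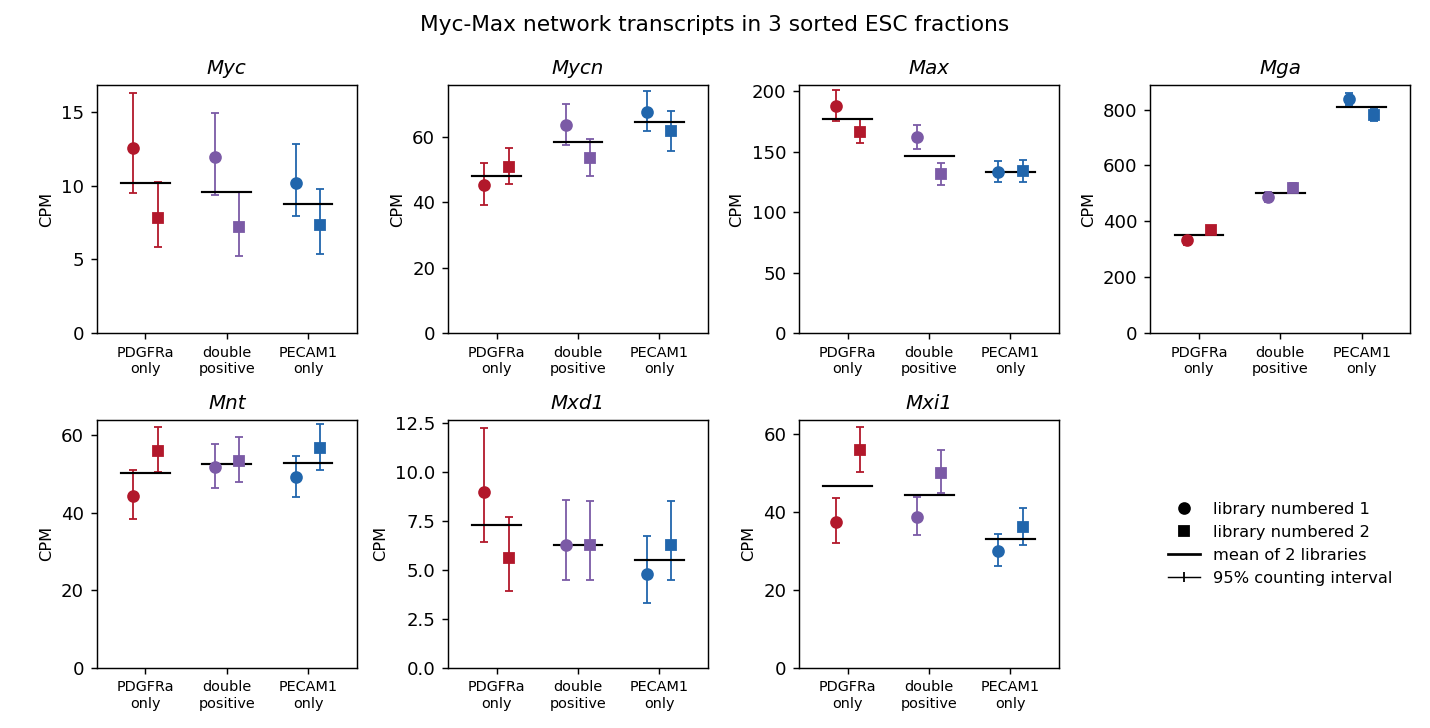
Level of each gene in CPM (linear axes from 0) in each library of the 3 fractions. Circles and squares are the libraries numbered 1 and 2, black lines their means, and bars the exact 95% counting interval of the library; Mga forms 3 separate steps from 351 to 809 CPM, while the fractions of Myc, Mnt and Mxd1 overlap.

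Promoter sequences from the RefSeq table (GRCm38.p6) are shown for Mga and Mycn, the members called lower in PDGFRa-only cells, and for Max and Mnt, the members whose promoter held an E-box among the 6 with an entry (all but Myc). They cover the 250 bases before and 20 after the start site of Mga at chr2:119896978-119897247 (plus strand), Mycn at chr12:12941817-12942086 (minus strand), Max at chr12:76962229-76962498 (minus strand) and Mnt at chr11:74830674-74830943 (plus strand), each written 5′ to 3′ on its gene's strand, with capitals for the E-box, CACGTG.
Mga: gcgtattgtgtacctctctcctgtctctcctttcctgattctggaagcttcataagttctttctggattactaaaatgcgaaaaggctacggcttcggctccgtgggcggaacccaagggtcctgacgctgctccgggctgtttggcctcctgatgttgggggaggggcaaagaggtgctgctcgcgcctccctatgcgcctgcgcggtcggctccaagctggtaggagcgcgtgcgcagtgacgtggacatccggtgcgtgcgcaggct
Mycn: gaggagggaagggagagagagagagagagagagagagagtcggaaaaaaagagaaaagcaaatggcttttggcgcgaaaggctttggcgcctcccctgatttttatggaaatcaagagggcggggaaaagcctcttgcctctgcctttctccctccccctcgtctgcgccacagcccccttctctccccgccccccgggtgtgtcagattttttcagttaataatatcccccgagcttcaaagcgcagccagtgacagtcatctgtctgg
Max: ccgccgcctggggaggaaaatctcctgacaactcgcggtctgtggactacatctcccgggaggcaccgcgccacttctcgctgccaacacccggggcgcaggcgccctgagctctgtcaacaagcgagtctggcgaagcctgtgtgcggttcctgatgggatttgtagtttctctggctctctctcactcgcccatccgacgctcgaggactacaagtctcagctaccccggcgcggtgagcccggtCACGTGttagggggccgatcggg
Mnt: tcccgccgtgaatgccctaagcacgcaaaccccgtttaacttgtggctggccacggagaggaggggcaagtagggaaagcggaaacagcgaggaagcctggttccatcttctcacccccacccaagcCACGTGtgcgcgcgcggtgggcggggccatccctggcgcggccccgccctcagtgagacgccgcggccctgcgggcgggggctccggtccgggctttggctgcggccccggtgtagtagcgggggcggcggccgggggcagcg
CACGTG, the same on both strands and the preferred site of Myc-Max and related pairs, began 3 bases before the start site of Max and 123 bases before that of Mnt, and was absent from the windows of Mga, Mycn, Mxd1 and the 3 starts of Mxi1. Among all 32851 promoters of 300 bases in the table, 7.15% held it. AGGTGTGA, the core bound by T-box proteins such as Mga, was found in none of these windows on either strand, and in 1.28% of all promoters. The sequences describe these windows only, and no binding was measured.

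Mga (ENSMUSG00000033943, GRCm38 chromosome 2, 119897228 to 119969581, plus strand) had 333 and 369 CPM in the PDGFRa-only libraries, 486 and 519 CPM in the double-positive libraries and 839 and 779 CPM in the PECAM1-only libraries. No library of any fraction overlapped with those of another, and the double-positive fraction lay between the other two. Its counts, 1487 to 5782 per library, were the deepest of the 7 genes. The means were 351 ± 25.8, 503 ± 23.5 and 809 ± 42.4 CPM (SD, n = 2). Between the single-positive fractions the log2 fold change was -1.20 (SE 0.16, adjusted p = 1.13e-06), a level 2.30-fold lower in PDGFRa-only cells. Double-positive cells had a log2 fold change of -0.69 against PECAM1-only cells (SE 0.15, adjusted p = 0.00128), and PDGFRa-only cells one of -0.52 against double-positive cells (SE 0.15, adjusted p = 0.025). On the log2 scale the double-positive mean lay 57.0% of the way from PECAM1-only to PDGFRa-only. The last call was lost without double-positive replicate 1 (adjusted p = 0.106) or 2 (0.202) and with the deposited RPKM values (limma, 0.113), while the other 2 comparisons passed in all 15 alternative settings.

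Among 13909 tested genes, 64.0% changed by no more than Mga did between the single-positive fractions, so the size of its change was common in this comparison. The 3 genes of at least 5 CPM whose profiles over the 6 libraries lay closest to that of Mga were Uba2, Cep70 and Oxr1, at Euclidean distances of 0.076, 0.077 and 0.088 on the centred log2 CPM scale. Of 10424 candidate genes, 2728 lay within a distance of 1.

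Mycn (ENSMUSG00000037169, chromosome 12, 12936093 to 12941914, minus strand) encodes N-Myc, which can stand in for Myc in ESCs. It had 45.2 and 50.8 CPM in PDGFRa-only, 63.6 and 53.4 CPM in double-positive and 67.6 and 61.6 CPM in PECAM1-only libraries. Both PDGFRa-only libraries lay below all others, and the double-positive and PECAM1-only libraries overlapped. The PDGFRa-only level was 1.34-fold lower than the PECAM1-only level (log2 fold change -0.43, SE 0.18, adjusted p = 0.0452). Against the double-positive fraction, the log2 fold change was -0.28 (95% interval -0.65 to 0.091, adjusted p = 0.3), and between double-positive and PECAM1-only cells -0.15 (-0.51 to 0.22, adjusted p = 0.553). The call stood in 8 of 15 alternatives, among them every other scaling. Each single library other than PDGFRa-only replicate 2 ended it when left out, with an adjusted p of 0.129 for PDGFRa-only replicate 1, 0.228 and 0.0809 for PECAM1-only replicates 1 and 2, and 0.0707 and 0.0654 for double-positive replicates 1 and 2. It also missed the threshold with all genes kept (0.0856) and when only these 2 fractions were fitted (0.0576). Its direction was the same in all 15.

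Myc (ENSMUSG00000022346, chromosome 15, 61985391 to 61990374, plus strand), the founding member of the family, was low and even across the fractions. Its libraries held 12.5 and 7.84 CPM in PDGFRa-only, 11.9 and 7.18 CPM in double-positive and 10.2 and 7.34 CPM in PECAM1-only cells, and all 3 fractions overlapped. These levels rest on 46 to 76 counts a library, and the exact 95% counting interval of the lowest count ran from 33.7 to 61.4 counts, counting error only. The log2 fold change between the single-positive fractions was 0.19 (95% interval -0.47 to 0.84, adjusted p = 0.634), so that a PDGFRa-only level between 0.721 and 1.79 times the PECAM1-only level lay within the interval. The other comparisons gave 0.12 (-0.53 to 0.77, adjusted p = 0.797) and 0.065 (-0.59 to 0.72, adjusted p = 0.917). Both comparisons against PECAM1-only cells changed sign with upper-quartile scaling and with the deposited RPKM values. All 3 comparisons changed sign with library-size scaling or without single libraries.

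Myc is an immediate early gene, and other immediate early and heat shock genes known to respond to cell dissociation summed to 211 and 278 CPM in PDGFRa-only, 161 and 233 CPM in double-positive and 143 and 176 CPM in PECAM1-only libraries. Of their 13 tested genes, 7 rose and 4 fell in PDGFRa-only against PECAM1-only cells, where 30.1% of all tested genes were higher and 28.8% lower. Without PECAM1-only replicate 1 these counts were 4 and 2, with the RPKM values 4 and 3, and with DESeq2 6 and 2. Atf3, Jun, Zfp36 and Ier2 had the smallest p, with log2 fold changes of 4.84, 2.93, 2.27 and -1.33. The part of dissociation in the Myc values was not tested.

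Max (ENSMUSG00000059436, chromosome 12, 76937269 to 76962201, minus strand), the shared partner of the network, had 188 and 167 CPM in PDGFRa-only, 162 and 132 CPM in double-positive and 133 and 134 CPM in PECAM1-only libraries. The PDGFRa-only libraries lay above the others, while the double-positive pair straddled the PECAM1-only pair. The PDGFRa-only level was 1.33-fold higher than the PECAM1-only level (log2 fold change 0.41, SE 0.16, adjusted p = 0.0349). The other comparisons did not pass, at 0.14 for double-positive against PECAM1-only (95% interval -0.20 to 0.47, adjusted p = 0.544) and 0.27 for PDGFRa-only against double-positive (-0.063 to 0.60, adjusted p = 0.264). The call stood in 4 of 15 alternatives. It was lost with DESeq2 size factors (adjusted p = 0.0564), upper-quartile (0.281) and library-size scaling (0.532), with a minimum count of 30 (0.0533), with DESeq2 (0.0717), when only these 2 fractions were fitted (0.0613), and on leaving out replicate 1 of PDGFRa-only (0.106), replicate 1 (0.113) or 2 (0.103) of PECAM1-only, or replicate 2 of double-positive (0.0541). The deposited RPKM values gave -0.033 (limma, adjusted p = 0.881).

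**Figure D2:**
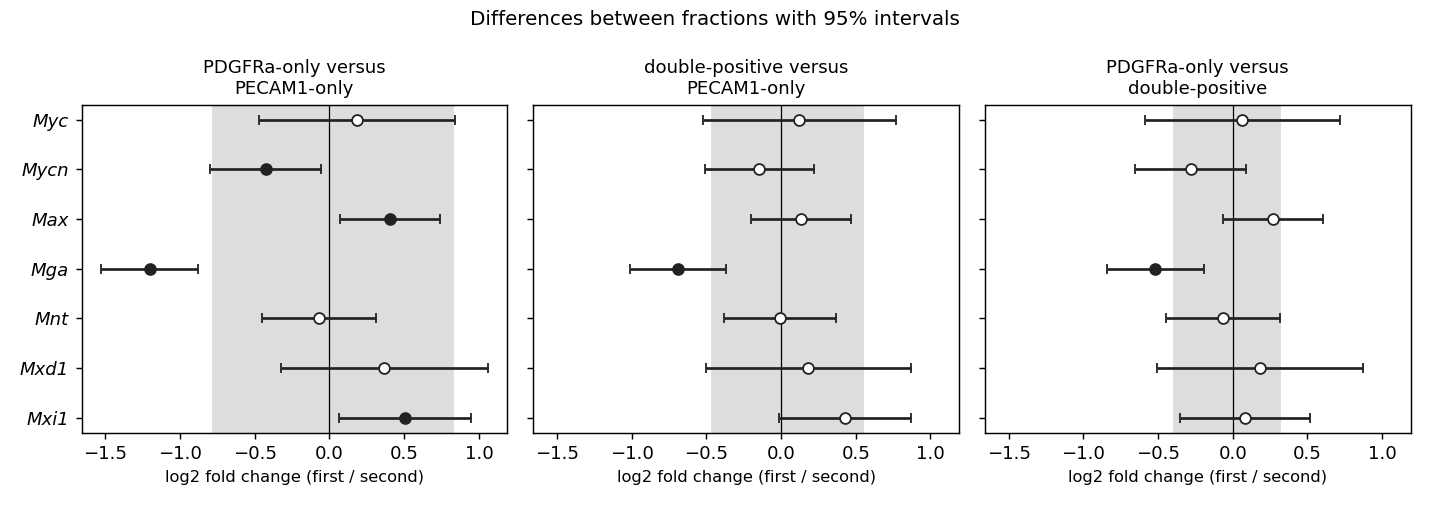
Log2 fold change of each gene in the 3 comparisons, with the first-named fraction over the second. Bars are 95% intervals, filled points passed an adjusted p of 0.05, and the grey band holds the middle 50% of all tested genes; only Mga lies outside the band, in all 3 panels.

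Of the 3 repressors that pair with Max and bind Sin3, Mxi1 was called between the single-positive fractions and Mnt and Mxd1 were not called in any comparison. Mnt (ENSMUSG00000000282, chromosome 11, 74830920 to 74845725, plus strand), the most widely expressed of them, had 44.3 and 56.1 CPM in PDGFRa-only, 52.0 and 53.5 CPM in double-positive and 49.2 and 56.7 CPM in PECAM1-only libraries. The fractions overlapped in every pair. Its log2 fold changes were -0.072 (95% interval -0.45 to 0.31, adjusted p = 0.757) between the single-positive fractions, -0.0065 (-0.38 to 0.37, adjusted p = 0.983) for double-positive against PECAM1-only and -0.065 (-0.45 to 0.32, adjusted p = 0.847) for PDGFRa-only against double-positive. The first interval ran from 0.731 to 1.24 times the PECAM1-only level, and the estimate ranged from -0.49 with the RPKM values (limma, adjusted p = 0.0929) to 0.082 without PDGFRa-only replicate 1.

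Mxd1 (ENSMUSG00000001156, chromosome 6, 86647042 to 86669161, minus strand), known for its rise as cells leave the cell cycle and differentiate, was the lowest of the 7 genes. Its 33 to 40 counts a library gave 8.96 and 5.58 CPM in PDGFRa-only, 6.28 and 6.24 CPM in double-positive and 4.79 and 6.25 CPM in PECAM1-only libraries. All fractions overlapped. The log2 fold change between the single-positive fractions was 0.37 (95% interval -0.33 to 1.06, adjusted p = 0.359), and a difference of up to 2.09-fold lay within the interval at this depth. Double-positive against PECAM1-only gave 0.18 (-0.51 to 0.87, adjusted p = 0.706), and PDGFRa-only against double-positive also 0.18 (-0.50 to 0.87, adjusted p = 0.752).

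Mxi1 (ENSMUSG00000025025, chromosome 19, 53310518 to 53375810, plus strand), a Mxd-type repressor also called Mxd2, had 37.4 and 55.9 CPM in PDGFRa-only, 38.8 and 50.1 CPM in double-positive and 30.0 and 36.1 CPM in PECAM1-only libraries. Both PECAM1-only libraries lay below the other 4, and the PDGFRa-only and double-positive libraries overlapped. The PDGFRa-only level was 1.42-fold higher than the PECAM1-only level (log2 fold change 0.51, SE 0.21, adjusted p = 0.0459). Double-positive against PECAM1-only gave 0.43 (95% interval -0.015 to 0.87, adjusted p = 0.121), and PDGFRa-only against double-positive 0.081 (-0.36 to 0.52, adjusted p = 0.833). The call stood in 4 of 15 alternatives and was lost with DESeq2 size factors (adjusted p = 0.0633), upper-quartile (0.233) and library-size scaling (0.384), a minimum count of 30 (0.0707), DESeq2 (0.118), the deposited RPKM values (limma, 0.437), a fit of only these 2 fractions (0.0581), and on leaving out replicate 2 of PDGFRa-only (log2 fold change 0.18, adjusted p = 0.514), replicate 1 (0.252) or 2 (0.0572) of PECAM1-only, or replicate 2 of double-positive (0.0514). Exons of Mxi1 overlap by 194 bases, or 2.84% of their length, with Gm10197 on the other strand. The strand setting of the counting is not given in the sources used here, so reads there could not be told apart.

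**Figure D3:**
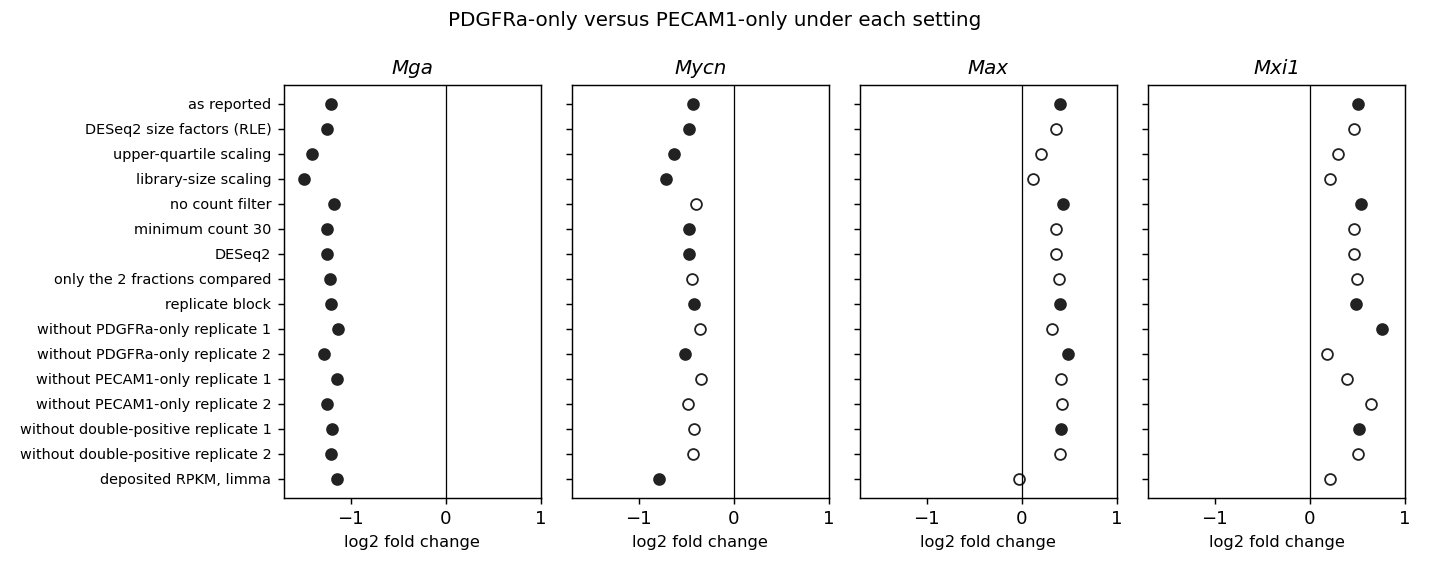
Log2 fold change between PDGFRa-only and PECAM1-only cells for the 4 genes called as reported, under each of 15 alternative settings. Filled points have an adjusted p below 0.05; Mga is filled throughout, from -1.49 to -1.13, while Mycn is filled in 8 alternatives and Max and Mxi1 in 4 each.

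Scaled by exon length (CPM per kb of merged GENCODE M21 exons), Mycn exceeded Myc in every library, by 2.97 to 6.91 times. Myc made up 25.2% and 15.8% of the summed Myc and Mycn level per kb in PDGFRa-only, 18.5% and 14.0% in double-positive and 15.4% and 12.6% in PECAM1-only libraries. The shares of the single-positive fractions did not overlap, and those of the double-positive fraction overlapped with both. The summed level was 18.3 ± 0.0310, 21.3 ± 3.43 and 22.8 ± 2.03 CPM per kb (SD, n = 2) in the same order. The summed Mnt, Mxd1 and Mxi1 level per kb was 0.890 and 1.15 times the Myc and Mycn sum in PDGFRa-only, 0.752 and 1.05 times in double-positive and 0.648 and 0.862 times in PECAM1-only libraries, a ratio in which only the double-positive libraries overlapped with the others. The nearest single-positive values, 0.890 and 0.862, lay close together, and with the deposited RPKM values the single-positive libraries overlapped in this ratio. Max per kb was 2.85 and 2.53 times the Myc and Mycn sum in PDGFRa-only, 1.90 and 1.94 times in double-positive and 1.52 and 1.74 times in PECAM1-only libraries, with no overlap. For single tested genes non-overlap held in 77.9% between the single-positive fractions and 71.7% between double-positive and PECAM1-only cells. Between PDGFRa-only and double-positive cells it held in 57.5%, and no such share was taken for these ratios.

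The order of the levels per kb in the PECAM1-only fraction was Mga (52.7 CPM per kb), Max (37.1), Mycn (19.6), Mnt (11.4), Mxi1 (4.85), Myc (3.22) and Mxd1 (0.780). In the PDGFRa-only fraction Max (49.3) was above Mga (22.9), followed by Mycn (14.6), Mnt (10.9), Mxi1 (6.84), Myc (3.75) and Mxd1 (1.03), each step without overlap between libraries. In the double-positive fraction Max was at 40.8 and Mga at 32.8 CPM per kb, also without overlap. In the deposited RPKM values, whose gene lengths are not given in the sources used here, Max was above Mga in all 3 fractions (86.1 against 42.6 in PECAM1-only cells), and Mnt above Mycn in the PDGFRa-only and double-positive fractions by mean (20.0 against 18.3, and 24.9 against 24.1) but with libraries that overlapped. These 2 orders thus differed between the tables, and the cause was not tested. Mycn was above Myc there too.

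**Figure D4:**
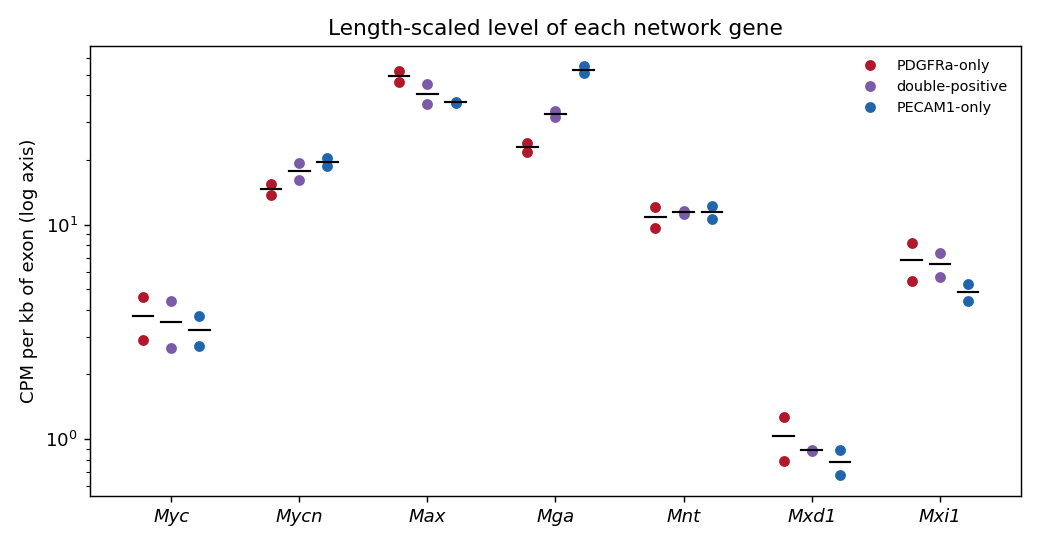
Level of each gene per kb of merged exon (CPM per kb, log axis) in each library, coloured by fraction, with black lines at the means. Mycn lies above Myc and Mxd1 lies lowest in every fraction; Mga and Max change places between the PECAM1-only and the other 2 fractions.

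Of the 6 other genes of the network, Mlx rose and Mycl and Mlxipl fell in PDGFRa-only against PECAM1-only cells, each in all 15 alternatives. In this comparison 59.0% of all tested genes were called (30.1% higher and 28.8% lower), so calls among these genes were no more frequent. Mycl, the third Myc paralogue, had 2.24 and 1.21 CPM in PDGFRa-only, 3.45 and 6.09 CPM in double-positive and 8.41 and 9.53 CPM in PECAM1-only libraries, 3 steps without overlap (log2 fold change -2.43, SE 0.42, adjusted p = 4.26e-05 between the single-positive fractions). Non-overlap was common, at 57.5% of tested genes between PDGFRa-only and double-positive cells. It reached 71.7% between double-positive and PECAM1-only cells and 77.9% between the single-positive fractions. Mlxipl, the glucose-responsive factor ChREBP, had 0.672 and 0.151 CPM against 4.64 and 8.91 CPM, on 4 counts over both PDGFRa-only libraries (-4.14, SE 0.64, adjusted p = 1.04e-05). That value moved to -5.32 without PDGFRa-only replicate 1, to -3.29 without replicate 2 and to -1.43 with the RPKM values (limma on log2(RPKM + 1)). Its partner Mlx, the Max-like protein, had 22.6 and 14.9 CPM against 8.85 and 8.59 CPM (1.08, SE 0.26, adjusted p = 0.00124). The repressors Mxd3 (-0.11, adjusted p = 0.826) and Mxd4 (0.85, adjusted p = 0.0959) and the Mlx partner Mlxip (0.34, adjusted p = 0.111) did not pass. Mxd4 passed without PDGFRa-only replicate 2 (1.5, adjusted p = 0.00164) and was at -0.065 without replicate 1.

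Counts over the lists that follow stand beside 30.1% of all tested genes called higher and 28.8% called lower in PDGFRa-only against PECAM1-only cells, and 21.8% and 16.4% in double-positive against PECAM1-only cells. Mga's partners in PRC1.6 were mixed. Of 10 complex genes, 6 fell and 3 rose in PDGFRa-only against PECAM1-only cells, with a median log2 fold change of -0.60. Tfdp2, a dimer partner of E2F factors, had 39.2 ± 4.72 CPM against 132 ± 14.4 CPM (-1.75, adjusted p = 2.8e-08), and L3mbtl2, a histone-binding scaffold, 41.5 ± 9.05 CPM against 88.3 ± 16.6 CPM (-1.10, adjusted p = 6.19e-05; SD, n = 2). The DNA-binding subunit E2f6 rose, from 25.3 ± 5.91 CPM in PECAM1-only to 49.6 ± 2.62 CPM in PDGFRa-only cells (0.97, adjusted p = 0.000278), and so did Yaf2, a Ring1-binding subunit, from 11.6 and 10.5 CPM to 28.4 and 34.4 CPM (1.51, adjusted p = 8.81e-06). In the double-positive fraction 5 of the 10 were lower and 3 higher than in PECAM1-only cells. This changed to 1 lower and 2 higher without PECAM1-only replicate 1 or double-positive replicate 2, to 4 and 1 without PECAM1-only replicate 2, and to 3 and 2 without double-positive replicate 1.

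Germline genes that PRC1.6 represses in mouse ESCs were mostly lower in PDGFRa-only cells. Of 19 such genes 18 were tested, and 17 fell and 1 rose in PDGFRa-only against PECAM1-only cells, with a median log2 fold change of -2.94 (15 to 18 fell in the alternatives). Tex101 was too low to be tested, with 22 counts over all libraries. Dazl, an RNA-binding protein of germ cells, had 6.86 CPM in PDGFRa-only, 83.7 CPM in double-positive and 191 CPM in PECAM1-only cells, and Stag3, a meiotic cohesin subunit, 15.7, 38.8 and 109 CPM. Smc1b, another cohesin subunit, had 3 counts over both PDGFRa-only libraries and was lower there by a ratio of 381 (counting interval 130 to 1851). Stra8, a regulator of meiotic entry, also had 3 counts, a ratio of 156 (53.2 to 761). Sycp3, a synaptonemal complex gene named after its value was seen, rose (1.09, adjusted p = 0.000152). In the double-positive fraction 14 of the 18 were lower and 1 higher than in PECAM1-only cells. The summed pluripotency markers fell in the same fractions, from 1686 and 1746 CPM to 573 and 492 CPM in double-positive and 156 and 111 CPM in PDGFRa-only libraries, and their part in it was not tested.

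Sin3 corepressor genes, the effectors of Mnt, Mxd1 and Mxi1, fell in 6 of 9 cases and rose in 2 (median -0.84), with 6 lower in all 15 alternatives. The list also holds Ncor1, a corepressor that is not a core Sin3 subunit, named after its value was seen. Ncor1 was among those that fell, and its value was the list median (-0.84, adjusted p = 8.61e-05). Sin3a, a scaffold subunit, had 134 ± 0.528 CPM in PDGFRa-only and 297 ± 3.14 CPM in PECAM1-only cells (-1.15, adjusted p = 1.39e-06), the deacetylase gene Hdac2 63.5 ± 3.72 and 156 ± 9.25 CPM (-1.30, adjusted p = 1.17e-06), and Sap30, a Sin3-associated protein, 2.55 ± 0.442 and 55.2 ± 0.0859 CPM (-4.40, adjusted p = 1.16e-11; SD, n = 2). Rbbp7, a histone-binding subunit, rose (1.26, adjusted p = 5.44e-06). The other gene that rose, Sin3b (0.41, adjusted p = 0.0367), named after its value was seen, is the paralogue of Sin3a. The number that rose was 1 under every other scaling, DESeq2, a minimum count of 30, RPKM and a fit of only these 2 fractions, and without any single library other than PDGFRa-only replicate 2.

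**Figure D5:**
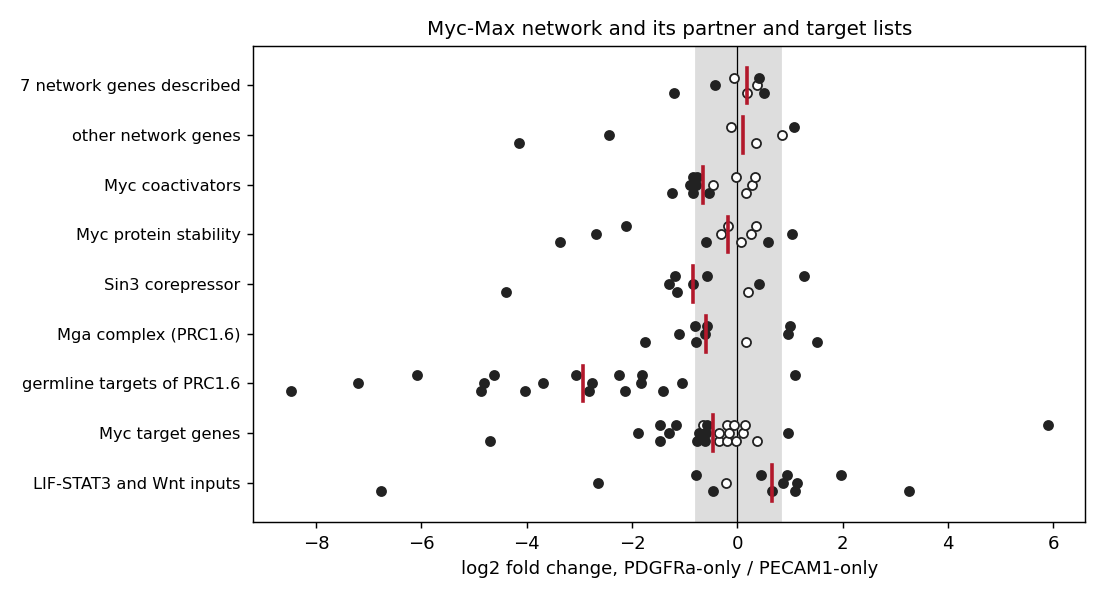
Log2 fold change between PDGFRa-only and PECAM1-only cells of the tested genes of each list. Filled points passed an adjusted p of 0.05, red lines are list medians, and the grey band holds the middle 50% of all tested genes; the germline targets lie furthest to the left, with a median of -2.94, and the 7 network genes lie near 0 apart from Mga.

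Myc coactivators, a list that also holds the Myc partner Zbtb17 (Miz-1), fell in 7 of 12 cases and none rose (median -0.65). Zbtb17, not itself a coactivator and named after its value was seen, was among those that fell (-0.79, adjusted p = 0.0149). The chromatin-remodelling subunit genes Actl6a (-1.24, adjusted p = 2.95e-05) and Ruvbl2 (-0.85, adjusted p = 0.000105), the histone methylation cofactor Wdr5 (-0.89, adjusted p = 0.000185) and the acetyltransferase Kat2a (-0.76, adjusted p = 0.000344) had the smallest p. Trrap, the scaffold of acetyltransferase complexes, named after its value was seen, had a log2 fold change of 0.28 (adjusted p = 0.114). Among 11 genes that set the stability of Myc protein, 4 fell and 2 rose (median -0.18). With upper-quartile or library-size scaling or the RPKM values 6 fell and 1 rose, and without PECAM1-only replicate 1 these counts were 3 and 1. The deubiquitinase Usp28 had 21.4 CPM in PDGFRa-only, 63.4 CPM in double-positive and 224 CPM in PECAM1-only cells (-3.38, adjusted p = 2.76e-12). The kinases Pim3 (-2.12, adjusted p = 1.81e-07) and Pim1 (-2.68, adjusted p = 2.67e-06), which stabilise Myc, fell, and Gsk3b, which marks it for degradation, rose (1.04, adjusted p = 8.39e-06). The remaining calls were Fbxw7 and Gsk3a, both named after their values were seen. Fbxw7, which directs Myc to degradation, fell (-0.60, adjusted p = 0.00972), so the calls did not all point one way. Gsk3a, the paralogue of Gsk3b, rose (0.57, adjusted p = 0.00822). Pim1 rested on 29 counts over both PDGFRa-only libraries and was at -3.86 without replicate 2 and -2.18 without replicate 1 of that fraction. RNA levels say nothing of the amount of Myc protein.

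Of 24 textbook Myc targets, 11 fell and 2 rose (median -0.47), while Myc RNA itself showed no call. Dkc1 (-1.90, adjusted p = 6.72e-09), a pseudouridine synthase of ribosomal RNA, Cad (-1.47, adjusted p = 3.62e-07), the first enzyme of pyrimidine synthesis, and Tfrc (-4.69, adjusted p = 2.71e-14), the transferrin receptor, were lower in PDGFRa-only cells. Ccnd2, which encodes cyclin D2, was higher, at 153 ± 13.7 CPM against 2.56 ± 0.134 CPM (5.89, adjusted p = 5.61e-14; SD, n = 2). The other target that rose was Nme1, named after its value was seen (0.96, adjusted p = 0.000322). Npm1, Nop56 and Ncl, nucleolar proteins named after their values were seen, fell (-1.29, -1.17 and -0.77, adjusted p = 6.85e-07, 7.14e-06 and 0.0004). Gnl3, Bop1, Polr1b and Pa2g4, also named after their values were seen, fell too (-0.60, -0.74, -0.58 and -0.61, adjusted p = 0.00281, 0.0228, 0.0182 and 0.00293). The nucleolar genes Nop58 (-0.20, adjusted p = 0.317), Fbl (-0.66, 0.236) and Mrto4 (0.14, 0.596) did not pass. The classical target Odc1 was at -0.062 (adjusted p = 0.758). The number that fell ranged from 9 to 16 over the alternatives, with 16 under library-size scaling.

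Upstream of Myc, 8 of 13 LIF-STAT3 and Wnt genes rose and 4 fell (median 0.65). The number that rose was 5 with upper-quartile or library-size scaling and 5 without PECAM1-only replicate 1. The LIF receptor gene Lifr had 716 ± 64.4 CPM in PDGFRa-only and 182 ± 11.5 CPM in PECAM1-only cells (1.97, adjusted p = 1.14e-09). Among the Wnt effectors of the TCF family, Tcf7l2 rose (3.25, adjusted p = 1.73e-11), while Lef1 (-6.76, adjusted p = 7.97e-14) and Tcf7 (-2.64, adjusted p = 4.66e-09) fell. Tcf7l1 of the same family, named after its value was seen, also fell (-0.78, adjusted p = 0.0026). Stat3, likewise named after its value was seen, rose (0.95, adjusted p = 2.89e-05).

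Markers of other cell types that the gates could hold included several at or near 0 and a few that were not, namely Cdh5, Tek, Acta2 and Tfap2c. The 8 fibroblast markers summed to 2.91 and 10.1 CPM in PDGFRa-only, 6.91 and 17.9 CPM in double-positive and 7.83 and 10.3 CPM in PECAM1-only libraries, with 2 tested and 1 higher in PDGFRa-only than in PECAM1-only cells (Col1a2, 37 against 2 counts). Acta2, the other one tested, had 2.94, 7.58 and 7.05 CPM in PDGFRa-only, double-positive and PECAM1-only cells. The 8 endothelial and blood markers summed to 126 and 71.3, 74.9 and 55.2, and 15.5 and 14.2 CPM in the same order, with 1 of 2 tested higher (Cdh5, 924 counts against 1). Tek, the other one tested, had 9.41 and 10.4 CPM in PDGFRa-only, 10.4 and 9.67 CPM in double-positive and 13.8 and 12.3 CPM in PECAM1-only libraries, with Erg, Emcn and Ptprc at 0 counts in all fractions. The 6 trophoblast markers summed to 1.34 and 1.96, 10.7 and 13.4, and 33.8 and 37.7 CPM, with 1 tested and lower (Tfap2c, 7 counts against 425), and Cdx2 at 0 in PECAM1-only cells. Their part in the differences above was not tested.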

How the data were processed

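The authors deposited raw counts per Ensembl gene, without normalization, and RPKM values whose preprocessing is not given in the sources used here; all 6 RPKM columns share the same maximum. Per the submitters' processing notes, cutadapt 1.2.1, Bowtie2 2.1.0, TopHat2 2.0.8b, HTSeq 0.5.4p3 and GRCm38 were used, with no role stated. GENCODE M21 gave positions and exon lengths (36639 of 38561 identifiers matched).

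Genes were kept by filterByExpr (minimum count 10), scaled by TMM and tested with edgeR 4.0.16 (R 4.3.3) in a robust quasi-likelihood fit, with 1 mean per fraction over all 6 libraries (3 residual degrees of freedom). The SE is the log2 fold change over the square root of F. The code was tested on simulated data. The 15 alternatives included DESeq2 1.42.0 and limma 3.58.1 on log2(RPKM + 1). Totals of 4809661 to 7273669 counts limit precision for low genes, and intervals on counts cover counting error only. Python 3.11.15 and matplotlib 3.10.9 drew the figures.

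Members, lists and tests were chosen with earlier results of these data known. Genes named are the members, the 6 other network genes, the 4 smallest p of each list and the 3 nearest profiles, unless marked as chosen later. The list counts under other settings were added after the data were seen.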

Additional observations from a re-analysis of the deposited data

How the results depend on the processing

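Mga kept its direction in all 3 comparisons, and Mycn in all 3, under all 15 alternatives. For the 7 genes in 3 comparisons, 58 of 90 alternative values of called results kept their call, 31 lost it and 1 turned its sign (Max, -0.033 with RPKM); of results not called, 2 passed and 29 turned sign. Genes called for PDGFRa-only versus PECAM1-only numbered 4 as reported, 2 with DESeq2 size factors, upper-quartile scaling, library-size scaling, a minimum count of 30, DESeq2 or RPKM, 1 in a fit of these 2 fractions alone, and 1 to 3 without single libraries. For double-positive versus PECAM1-only it was 1 to 2 without single libraries, the 2 being Mga and Mxi1 without PDGFRa-only replicate 1 (Mxi1 adjusted p = 0.0481, edgeR) or 2 (0.0498), and for PDGFRa-only versus double-positive 0 with RPKM and 0 to 1 without single libraries. In the whole table the last comparison called 2450 genes, 773 with RPKM and 1269 to 2885 without single libraries, the lowest without double-positive replicate 1 and 1374 without replicate 2. The other comparisons called 6654 to 7921 (8205 as reported) and 3610 to 6230 (5319) without single libraries.

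Upper-quartile scaling moved the median of all genes to -0.20 and library-size scaling to -0.28 between the single-positive fractions (-0.17 and -0.22 for double-positive versus PECAM1-only), and the share of calls that were higher moved from 51.1% to 37.8% with library-size scaling. For double-positive versus PECAM1-only it moved from 57.0% to 43.3% and 39.8%, and for PDGFRa-only versus double-positive from 33.7% to 21.9% with library-size scaling, to 14.5% without double-positive replicate 1 (184 genes higher, against 826) and to 19.5% without replicate 2 (268). Signs turned, none with a call, as follows. For PDGFRa-only versus PECAM1-only, Myc was at -0.017 (upper-quartile), -0.099 (library-size) and -0.096 (RPKM), and Mlxip at -0.064 (RPKM). For double-positive versus PECAM1-only, Myc was at -0.047, -0.091 and -0.18, and Max at -0.033, -0.078 and -0.12 in the same order. There Mxd1 was at -0.030 (library-size) and -0.017 (RPKM), and Mnt at 0.035 without a count filter. For PDGFRa-only versus double-positive, Myc was at -0.0078 (library-size) and Mxi1 at -0.0049 (RPKM). Without single libraries, PDGFRa-only versus PECAM1-only ranged from -0.16 to 0.51 for Myc, -0.26 to 0.082 for Mnt, -0.65 to 0.35 for Mxd3 and -0.065 to 1.5 for Mxd4. Double-positive versus PECAM1-only ranged from -0.27 to 0.44 for Myc, -0.0072 to 0.28 for Max and -0.088 to 0.11 for Mnt. PDGFRa-only versus double-positive ranged from -0.28 to 0.48 for Myc, -0.25 to 0.088 for Mnt, -0.17 to 0.52 for Mxd1 and -0.25 to 0.33 for Mxi1. The cause was not tested. The log2(RPKM + 1) scale understates changes of low genes. On it Mycl was at -1.7, Dazl at -3.88, Smc1b at -4.26, Stra8 at -4.56 and Ccnd2 at 4.11. Tfrc was at -3.9, Tcf7l2 at 2.58, Lef1 at -3.48 and Atf3 at 3.9. Taken as folds rather than as log2 values, each was over 1.5 times closer to no change.

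Same-numbered libraries deviated from their fraction means with correlations across genes of 0.12 (PDGFRa-only with double-positive), -0.027 (PDGFRa-only with PECAM1-only) and 0.17 (double-positive with PECAM1-only), so the numbers were not taken to pair the libraries. With a replicate block, 8397, 5644 and 2834 genes were called (8205, 5319 and 2450 without), and 4, 1 and 1 of the 7 genes, as without the block. Depth limits Myc and Mxd1 most, at 33 to 76 counts a library.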

Other observations

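In all 3 fractions the library numbered 1 had the higher Myc value, and the library numbered 2 the higher Mxi1 and Mnt values. The summed immediate early and heat shock genes were also higher in the library numbered 2 of every fraction. They summed to 278 against 211 CPM in PDGFRa-only, 233 against 161 CPM in double-positive and 176 against 143 CPM in PECAM1-only cells. This sum was not tested by library number. With library number as a term beside the fractions in edgeR, chosen after these values were seen, the log2 difference of number 2 from number 1 was -0.62 for Myc (SE 0.21, unadjusted p = 0.0074, adjusted p = 0.379), 0.41 for Mxi1 (SE 0.14, unadjusted p = 0.0103, adjusted p = 0.394) and 0.19 for Mnt (SE 0.14, adjusted p = 0.741). None passed the correction, and 1 gene of the whole table did.

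The profiles closest to each gene over the 6 libraries were those of Hecw2, Mki67ip and Pinx1 for Myc, Eri1, Gm6421 and Kif22 for Mycn, Ssu72, Dmwd and Vhl for Max, Armcx5, Mtmr3 and Xrcc3 for Mnt, Ypel5, Mospd3 and 1700037H04Rik for Mxd1, and Bfar, Btbd8 and Gm15359 for Mxi1. Of 10424 candidates, 2728 (Mga) to 5634 (Mnt) lay within a distance of 1 on the centred log2 CPM scale, so that closeness was common.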
